A study of Mus musculus with 2 samples.

Results

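The genes described here are 34 genes of the interferon and antiviral response, read in mouse embryonic stem (ES) cells that carry 1 chromosome set of the 129 strain and 1 of *Mus musculus castaneus* (cas). They were chosen by name as the sensors, adaptors, transcription factors, receptors and induced effectors of this response, and all 34 have a row among the 48550 gene rows of the data. The study measured total nuclear RNA of F121-6, a female hybrid 129/cas ES cell line, cultured with LIF on a feeder layer of mouse embryonic fibroblasts (MEFs) whose division had been stopped with mitomycin C. There is 1 group of 2 libraries, no cells treated with interferon or virus are among the samples used here, and in each library every gene's reads were split into those of the 129 allele and those of the cas allele. The comparison is therefore 129 against cas within each library. The labels do not give the strain of the feeder cells, the direction of the cross, or whether separate cultures were used for the libraries. The p-values thus rest only on the spread between these libraries, which may be technical. That spread is pooled over genes of like abundance, so a low p-value does not show that a gene's own libraries agreed.

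Cells detect viral nucleic acids with sensors such as RIG-I and MDA5 for RNA and the cGAS-STING pathway for DNA. These sensors act through adaptors and interferon regulatory factors (IRFs) to switch on interferon genes. Secreted interferon binds receptors that signal through JAK kinases and STAT proteins, and STAT complexes with IRF9 bind the interferon-stimulated response element (ISRE) in the promoters of effector genes. Mouse ES cells are known for a weak interferon response compared with differentiated cells.

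The libraries held 28523744 and 31402765 allele-assigned reads, 53.6% and 54.2% of them from 129. Ratios are given as log2(129/cas) of reads scaled so that the typical gene is at 0. A positive value is higher from 129, and a 129 share of 55.1% in library 1 or 56.2% in library 2 corresponds to that typical gene. A gene with 20 or more allele reads in both libraries was tested, and it was called at an adjusted p under 0.05 in limma over all 15509 tested genes. The standard error (SE) of a ratio is pooled over genes of like abundance and does not show how far a gene's own libraries differed. Shares of single libraries carry exact (Clopper-Pearson) 95% intervals, which cover counting error only. The ES cell label was checked on 10 markers. Esrrb, Tfcp2l1, Zfp42 and Klf4 led them in reads, with 39780 and 38740 reads for Esrrb alone, while Sox2 was listed at 0 in every column.

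Of the 34 genes, 23 were tested, 9 had reads but too few for the test, and 2 were listed at 0. Tested genes had a median of 270 reads over both libraries, against 844 for all tested genes. Of the 23, 5 were higher from 129 (Ifit2, Xaf1, Ifngr2, Irf2 and Trim25) and 3 were higher from cas (Oas1a, Mx1 and Ifnar1), and 15 were not called. That is 34.8% called, against 44.0% of all tested genes, of which 21.9% were higher from 129 and 22.0% from cas. The median log2 ratio of the 23 genes was 0.24, with 0.25 in library 1 and 0.09 in library 2, and that of all tested genes was 0.00.

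**Figure D1:**
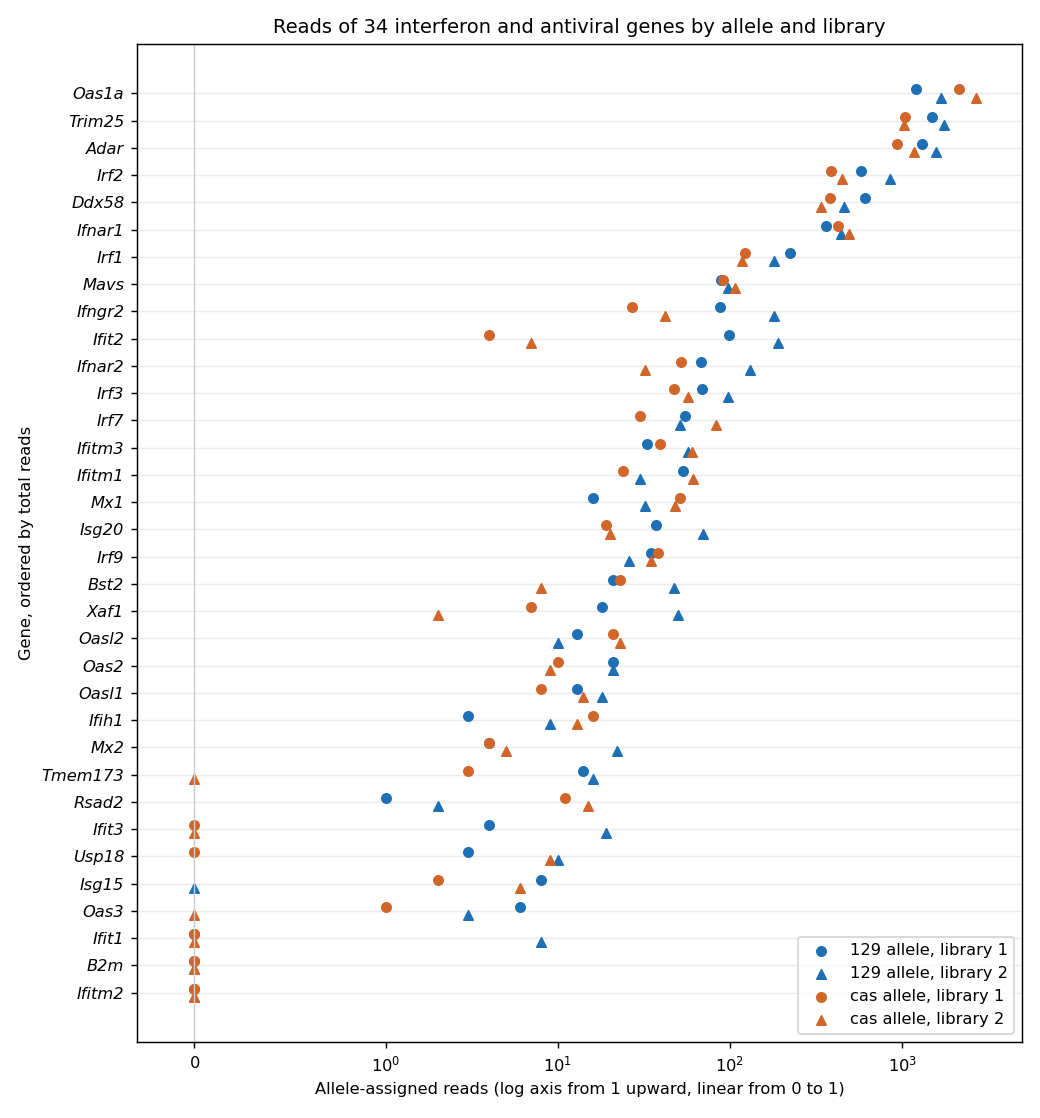
Allele-assigned reads (horizontal axis, log scale from 1 upward) of the 34 genes (vertical axis, ordered by total reads), by allele (colour) and library (symbol). Oas1a, Trim25 and Adar lie highest, with 930 to 2702 reads in every column, whereas B2m and Ifitm2 sit at 0 in all 4.

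**Figure D2:**
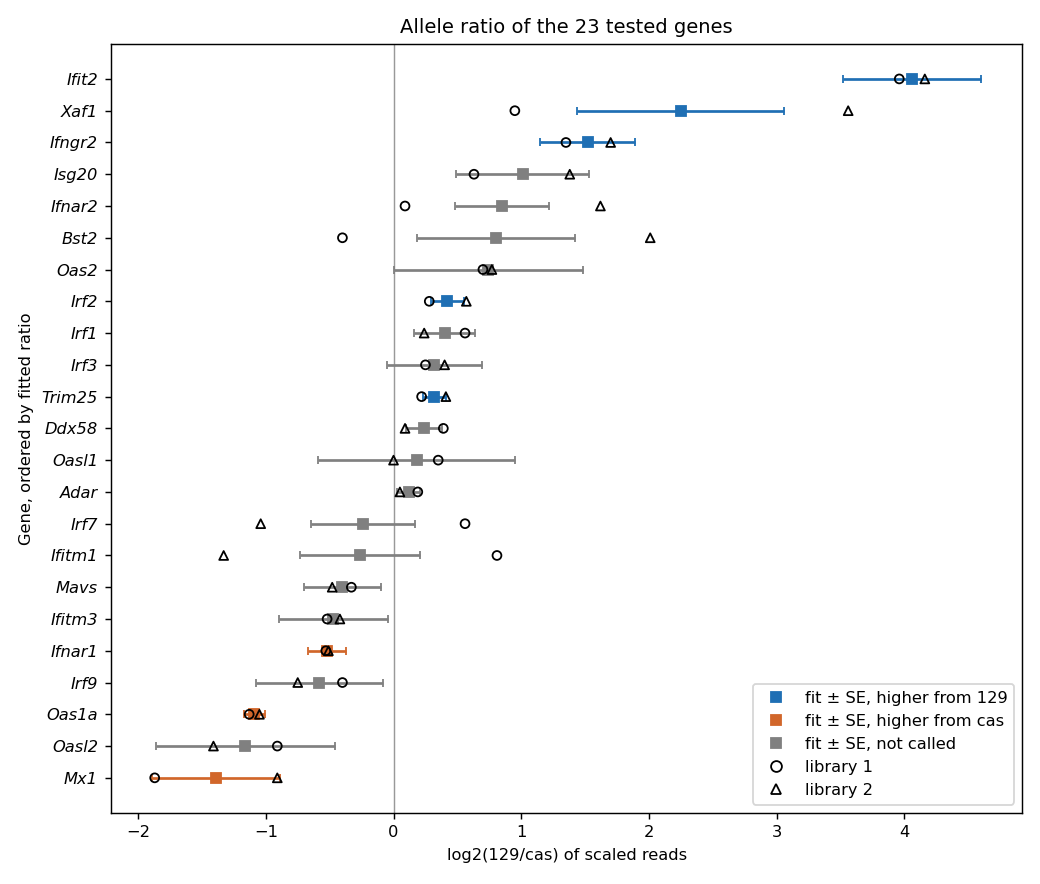
Fitted log2(129/cas) of scaled reads with its SE (squares and bars) for the 23 tested genes, with each library's own ratio as open circles (library 1) and triangles (library 2). Ifit2 stands farthest toward 129 at 4.06 and Mx1 farthest toward cas at -1.39, and the libraries of Irf7, Ifitm1 and Bst2 lie on opposite sides of 0.

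The genes listed at 0 were B2m, which encodes the light chain of MHC class I molecules, and Ifitm2, a membrane protein that restricts virus entry. Neither can be called silent from these values. Sox2, a defining ES cell factor, was also at 0 in both libraries, as were 20.1% of the protein-coding rows. The sources used here do not give the number of sequence differences that tell the alleles apart in each gene. Gm45717 overlaps Ifitm2 and Sox2ot overlaps Sox2 on the same strand, and Patl2 overlaps B2m on the opposite strand. Twist1 and Lum were also at 0 and have no overlapping gene. Whether overlap lowered the counts was not tested. The 9 genes with too few reads had between 8 and 41 over both libraries, and most are effectors. Isg15, a ubiquitin-like modifier, had 8 reads from 129 and 2 from cas in library 1, and 0 and 6 in library 2. Rsad2, which encodes the antiviral enzyme viperin, had 1 and 11 in library 1 and 2 and 15 in library 2, so that its pooled 129 share was 10.3% (2.19 to 27.4). Oas3, which like the other OAS enzymes makes 2'-5' oligoadenylates in response to double-stranded RNA, had 6 and 1 in library 1 and 3 and 0 in library 2. Usp18, the protease that removes Isg15 from proteins, had 3 and 0 in library 1 and 10 and 9 in library 2. Reads of these effectors were thus few from either allele, and their ratios were not tested.

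Per length, Oas1a stood first. Over both libraries it had 686 allele reads per kb of its annotated span, followed by Trim25 with 255, Ifitm3 with 159 and Adar with 130. Oas3 had 0.407, Ifih1 0.813, Ifit1 0.875 and Usp18 0.88 reads per kb. These values describe nuclear RNA that could be assigned to an allele, and depend also on how many informative sequence differences a gene holds. Oas1a alone gave 28.0% of all reads of the 34 genes, Trim25 19.3% and Adar 18.0%.

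The ISRE was looked for in RefSeq promoter windows of 300 bases (250 before a gene's start to 50 after it, build GRCm38.p6), because it is the element through which most of these effectors are induced. Windows were found for 29 of the 34 genes, 36 windows in all, and in 31 of these the last 40 bases lay within a GENCODE transcript of the gene. The letters GAAANNGAAA, searched on both strands, were in the windows of 13 genes, in 36.1% of the 36 windows of the genes against 3.44% of all 32851 windows. The genes were chosen as interferon genes, so this excess is a description. Of the 13 genes with a match, 5 had enough reads to be tested and 8 did not; of the 16 genes with a window and no match, all 16 were tested. The median was 29 reads per gene with a match and 276 without, and 4.4 against 24.2 reads per kb. Genes with a match were also shorter, with median spans of 9139 against 14319.5 bases. The 5 genes with no window (Oas2, Mx1, Mx2, Tmem173 and Usp18) had a median of 35 reads, and 2 of them were tested. Genes with a match include B2m and Ifitm2, whose 0 values cannot be read as silence. Those without include the induced genes Ifit2 and Xaf1, so the search does not separate induced genes from others. The stretches before the start are shown here for genes with few or no reads and for Oas1a, Bst2 and Irf2, which were tested. They are 5′ to 3′ on the gene's strand, with each match in capitals (TTTCNNTTTC where the match is on the other strand); they come from the reference genome and not from the 129 or cas chromosomes.
Isg15, chr4:156200860-156200911, minus strand: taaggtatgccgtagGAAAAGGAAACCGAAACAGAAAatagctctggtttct
Ifit1, chr19:34640770-34640828, plus strand: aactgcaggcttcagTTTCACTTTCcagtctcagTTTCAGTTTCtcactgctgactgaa
Ifit3, chr19:34583358-34583431, plus strand: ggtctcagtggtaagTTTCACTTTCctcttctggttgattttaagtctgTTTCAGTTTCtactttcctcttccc
Rsad2, chr12:26456548-26456587, minus strand: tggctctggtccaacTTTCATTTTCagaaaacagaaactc
Oas3, chr5:120777710-120777749, minus strand: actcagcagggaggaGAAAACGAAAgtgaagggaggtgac
B2m, chr2:122147533-122147572, plus strand: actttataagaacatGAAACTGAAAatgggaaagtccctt
Oas1a, chr5:120907526-120907560, minus strand: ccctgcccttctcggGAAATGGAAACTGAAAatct
Bst2, chr8:71537572-71537617, minus strand: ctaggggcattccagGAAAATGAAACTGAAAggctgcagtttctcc
Irf2, chr8:46739495-46739528, plus strand: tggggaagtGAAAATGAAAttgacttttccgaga

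Isg15 thus holds 3 overlapping matches and 16 reads in all, and Oas1a holds 2 overlapping matches and 7732 reads. A second element, the gamma-activated site through which interferon gamma induces genes, was searched with the letters TTCNNNGAA, which read the same on both strands. It matched in the windows of 10 genes, 27.8% of their windows against 8.30% of all windows, and all 10 of these genes were tested. The stretches are shown for Irf1, for Ifit2, whose window held no ISRE match, and for Ifnar2, which differed between the libraries.
Irf1, chr11:53769909-53769947, plus strand: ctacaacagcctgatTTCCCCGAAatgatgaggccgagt
Ifit2, chr19:34550444-34550476, plus strand: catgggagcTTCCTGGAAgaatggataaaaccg
Ifnar2, chr16:91372554-91372592, plus strand: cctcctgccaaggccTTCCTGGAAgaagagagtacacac

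Among the sensors and adaptors, only Trim25 was called. Trim25, the ubiquitin ligase that activates RIG-I (chromosome 11, 88999376 to 89020293, mm10), had 1495 reads from 129 and 1044 from cas in library 1, and 1759 and 1028 in library 2. Its 129 allele was higher in both libraries by a small amount, with a share of 61.0% ± 2.99 (SD, n = 2) and a log2 ratio of 0.32 (SE 0.09, adjusted p = 0.0017 in limma). Without pairing the alleles by library (no replicate block) the adjusted p was 0.11. Ddx58, which encodes RIG-I itself, had 611 and 380 reads in library 1 and 461 and 338 in library 2, a ratio of 0.24 (SE 0.14, adjusted p = 0.18 in limma). That ratio was called when 1 library size was shared by both alleles (0.56) and with the deposited column totals (0.34). The mitochondrial adaptor gene Mavs had near even reads, with 89 and 91 in library 1 and 98 and 107 in library 2. Relative to the typical gene its ratio was -0.40 (SE 0.30), which was not called. Adar, which encodes an enzyme that edits adenosine to inosine in double-stranded RNA and limits sensing of the cell's own RNA, had 1302 and 930 reads in library 1 and 1568 and 1180 in library 2. Its ratio of 0.12 (SE 0.09, adjusted p = 0.31 in limma) was the smallest in size of the 23 tested genes, and it was called with a shared library size (0.45) and with the column totals (0.22). Ifih1, which encodes MDA5, had 3 and 16 reads and then 9 and 13, and was not tested. Tmem173, which encodes STING, had 14 and 3 reads in library 1 and 16 and 0 in library 2, a pooled 129 share of 90.9% (75.7 to 98.1), and was likewise below the read minimum.

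Of the 5 IRF genes, only Irf2 was called. Irf2, a repressor of interferon-induced transcription and antagonist of Irf1 (chromosome 8, 46739732 to 46847458), had 574 reads from 129 and 385 from cas in library 1 and 856 and 448 in library 2. Both libraries were higher from 129, with a share of 62.7% ± 4.09 (SD, n = 2) and a ratio of 0.42 (SE 0.13, adjusted p = 0.0037 in limma), from 0.28 in library 1 and 0.57 in library 2; without the replicate block the adjusted p was 0.10. The activator Irf1 had 223 and 123 reads, then 179 and 118, a ratio of 0.40 (SE 0.24, adjusted p = 0.17 in limma), close in size to that of Irf2 but from fewer reads. Irf3, the factor activated first by the sensors, had 0.32 (SE 0.37), and Irf9, a DNA-binding partner of STAT proteins, had -0.58 (SE 0.50).

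Irf7, which amplifies interferon production, went opposite ways in the libraries. Library 1 had 55 of its reads from 129 and 30 from cas, whereas library 2 had 51 and 83. Its 129 share was 64.7% (53.6 to 74.8) and then 38.1% (29.8 to 46.8), and these intervals do not overlap. Opposite-strand genes overlap Irf1, Irf2, Irf3 and Irf7, and Rnf31 overlaps Irf9 on the same strand; the sources used here do not say if strand was used in counting, so reads of these partners cannot be told apart. Phrf1 is the partner of Irf7 and Bcl2l12 that of Irf3.

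The receptor genes lie together on chromosome 16, and their allele ratios differed. Ifnar1, the subunit of the type I interferon receptor that binds TYK2 (91485238 to 91507441), had 360 reads from 129 and 424 from cas in library 1 and 440 and 490 in library 2. It was higher from cas relative to the typical gene, with a 129 share of 46.6% ± 0.985 (SD, n = 2) and a ratio of -0.52 (SE 0.15, adjusted p = 0.0012 in limma); with a shared library size it was -0.19 (adjusted p = 0.27). Ifngr2, a subunit of the interferon gamma receptor (91547072 to 91565623), had 87 and 27 reads, then 179 and 42. Its 129 share was 78.7% ± 3.31 (SD, n = 2), its ratio 1.52 (SE 0.37, adjusted p = 1.4e-04 in limma), a 2.88-fold excess. Ifnar2, the other subunit of the type I receptor (91372783 to 91405589), had 68 and 52 reads in library 1 and 130 and 32 in library 2. Its 129 share was 56.7% (47.3 to 65.7) in library 1 and 80.2% (73.3 to 86.1) in library 2, and its ratio of 0.85 (SE 0.37, adjusted p = 0.052 in limma) was just outside the threshold. It was called with pseudocounts of 0.5 (0.78) and 1 (0.70) and with both other scalings (1.17 with a shared library size and 0.95 with the column totals). It stayed uncalled without the replicate block (adjusted p = 0.17 in limma), with no read minimum, with a minimum of 50 reads, and at the 1.5-fold threshold. Il10rb, between the type I receptor genes and a subunit of the interferon lambda receptor, had 34 reads from 129 and 7 from cas and was not tested. The sources used here do not say how reads of Gm21970, which overlaps Ifnar2 and Il10rb on the same strand, were counted. Along these 193 kb, Ifnar1 was thus on the cas side and Ifngr2 on the 129 side. The difference between neighbouring genes was not tested as such, but their pooled 129 shares of 46.7% (44.3 to 49.1) and 79.4% (74.7 to 83.6) had intervals that did not overlap.

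**Figure D3:**
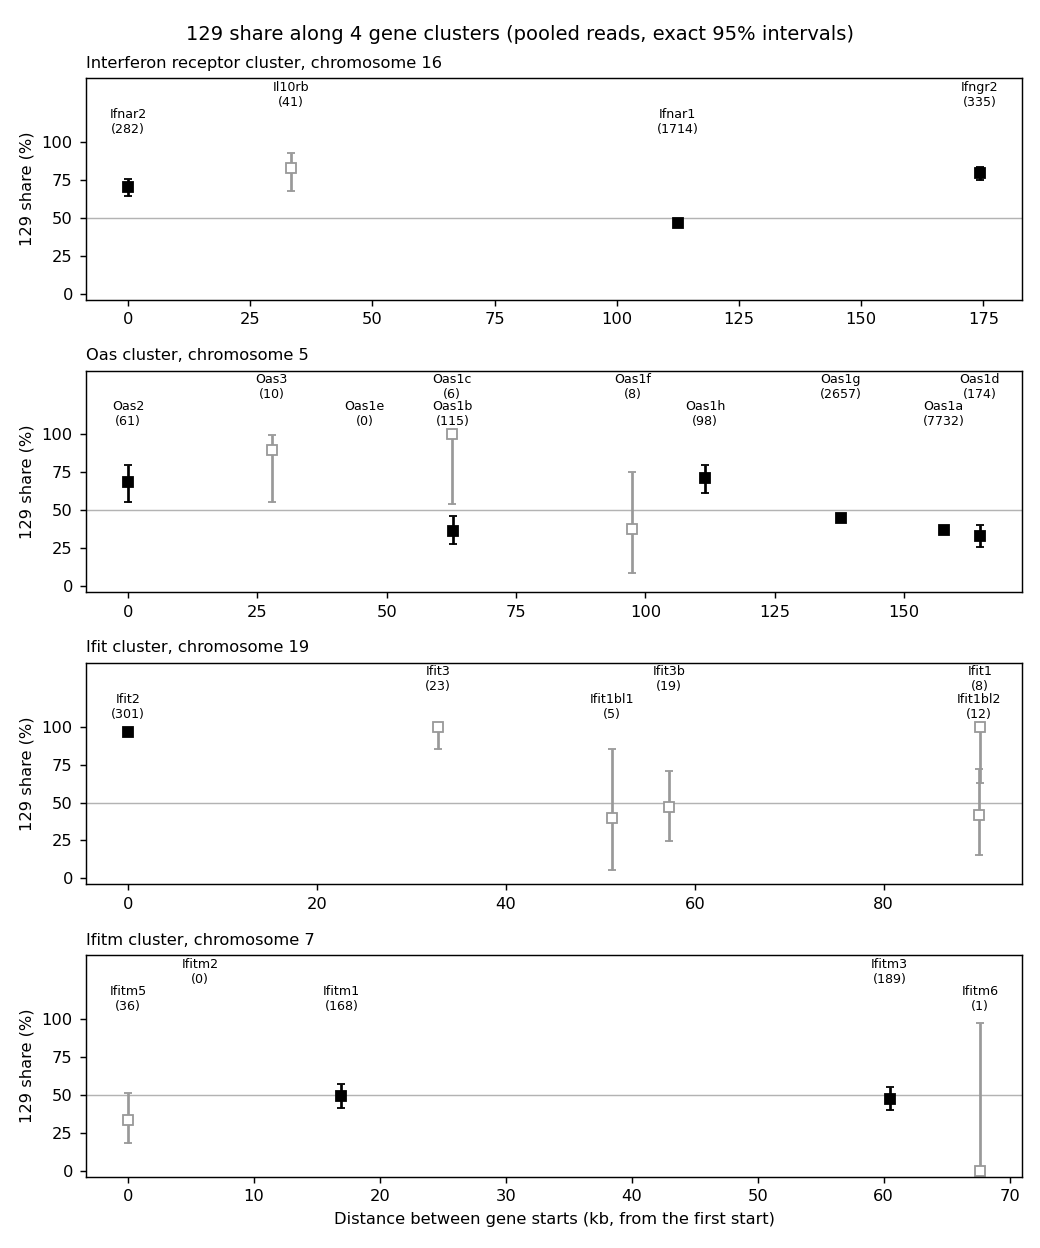
Share of reads from 129 (vertical axis, percent, both libraries pooled, exact 95% intervals) against the distance between gene starts (kb) in 4 gene clusters, with total reads in parentheses and open symbols for untested genes. Ifnar1 at 46.7% lies between neighbours at 70.2% to 82.9%, Oas1a at 37.3% lies between Oas1g at 45.1% and Oas1d at 32.8%, and Ifit1, Ifit2 and Ifit3 lie at 96.3% to 100%.

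The OAS genes had the most reads of any effector family, from 1 gene. Oas1a (chromosome 5, 120896256 to 120907521) had 1203 reads from 129 and 2147 from cas in library 1 and 1680 and 2702 in library 2. Its cas allele was higher in both, with a 129 share of 37.1% ± 1.72 (SD, n = 2), a ratio of -1.09 (SE 0.08, adjusted p = 4.2e-41 in limma) and a 2.13-fold excess. Oas2 had 21 and 10 reads, then 21 and 9, a ratio of 0.74 (SE 0.74) that was not called. The OAS-like genes Oasl1 (0.18, SE 0.77) and Oasl2 (-1.16, SE 0.70) were not called either, the latter with 13 and 21 reads and then 10 and 23. The OAS1 copies beside Oas1a were looked at because reads of similar copies can be assigned to the wrong gene. How alike their sequences are was not measured here. Oas1g had 540 and 632 reads, then 659 and 826, and was higher from cas (-0.60, SE 0.12, adjusted p = 2.5e-06 in limma). Oas1d had 18 and 78 reads, then 39 and 39, and was also higher from cas (-1.33, SE 0.47, adjusted p = 0.013 in limma), but the excess came from library 1 (-2.32 against -0.35). The sources used here do not say how reads shared between copies were counted, so the ratios of single OAS1 genes are uncertain.

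The IFIT genes, whose proteins bind foreign RNA ends and block its translation, had reads almost only from 129. Ifit2 (chromosome 19, 34550694 to 34576419) had 99 reads from 129 and 4 from cas in library 1, and 191 and 7 in library 2. Its 129 share was 96.3% ± 0.246 (SD, n = 2) and its ratio 4.06 (SE 0.54, adjusted p = 5.6e-13 in limma), a 16.7-fold excess and the largest of the 23 tested genes. Ifit3 had 4 and 0 reads, then 19 and 0, and Ifit1 0 and 0, then 8 and 0. Their pooled 129 shares were 100% (85.2 to 100.0) and 100% (63.1 to 100.0), and neither was tested because of its few reads. Their copies in the same 99 kb did not share the 129 excess in the few reads they had. Ifit3b had 9 reads from 129 and 10 from cas, Ifit1bl2 had 5 and 7, and Ifit1bl1 had 2 and 3.

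Genes typical of fibroblasts also had a 129 excess. Their tested ratios ran from -0.21 (Tagln) to 7.38 (Bgn). That range is wide and holds Ifit2, Adar at 0.12 and Irf1 at 0.40. Of 28 fibroblast markers, 24 were tested, and 70.8% of these were called, against 44.0% of all tested genes. Of the 24, 17 were higher from 129 and 0 from cas, 7 passed in neither direction, and the median ratio was 1.76. Summed reads of the 28 markers were 66.0% from 129 in library 1 and 69.4% in library 2, against 52.3% and 53.9% for the 34 genes. Fn1, Cd44, Col5a1 and Vim had ratios of 0.15, 4.48, 1.01 and 3.77, and Twist1, Lum and Timp1 were listed at 0. More of these cells and more RNA per cell cannot be told apart in bulk RNA, and the part of feeder RNA in the reads of Ifit2, Ifit3 and Ifit1 was not tested. Of 10 macrophage and leukocyte markers, 2 were tested and neither was called. The 10 had 218 reads in all in library 1 and 255 in library 2, led by Csf1r, Cd68, Adgre1 and Ptprc, while Fcgr1 and Aif1 were at 0. Of 6 endothelial markers, 2 were higher from 129 and 2 from cas.

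The IFITM genes encode small membrane proteins that block fusion of virus with the cell. Ifitm3 (chromosome 7, 141009586 to 141010770) had near even reads, with 33 from 129 and 39 from cas in library 1 and 57 and 60 in library 2. Relative to the typical gene its ratio was -0.47 (SE 0.43), which was not called. Ifitm1 had 53 and 24 reads in library 1 but 30 and 61 in library 2. Its 129 share fell on opposite sides of even, at 68.8% (57.3 to 78.9) and 33.0% (23.5 to 43.6), and the pooled ratio was -0.26 (SE 0.47).

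Of the Mx genes, which encode GTPases that trap viral nucleoproteins and are defective in most classical laboratory strains, Mx1 was called. Mx1 (chromosome 16, 97447035 to 97462907) had 16 reads from 129 and 51 from cas in library 1 and 32 and 48 in library 2. Its cas allele was higher in both, with a 129 share of 31.9% ± 11.4 (SD, n = 2) and a ratio of -1.39 (SE 0.50, adjusted p = 0.015 in limma), from -1.87 and -0.91. With a shared library size the ratio was -1.08 (adjusted p = 0.061). Mx2, annotated as a polymorphic pseudogene within the same 114 kb, had 4 and 4 reads, then 22 and 5, and was not tested.

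Xaf1, a pro-apoptotic gene that interferon induces (chromosome 11, 72301629 to 72313733), had 18 reads from 129 and 7 from cas in library 1, and 50 and 2 in library 2. Its 129 share was 84.1% ± 17.1 (SD, n = 2) and its ratio 2.25 (SE 0.81, adjusted p = 0.015 in limma). Library 2 alone gave 3.56 and library 1 alone 0.95. Isg20, an exonuclease of single-stranded RNA, had 37 and 19 reads, then 70 and 20, a ratio of 1.01 (SE 0.52, adjusted p = 0.10 in limma) that was called with a shared library size (1.32). Bst2, which encodes tetherin, a protein that holds budding virus at the cell surface, had 21 and 23 reads in library 1 and 47 and 8 in library 2. Its 129 share was 47.7% (32.5 to 63.3) and then 85.5% (73.3 to 93.5), and the ratio of 0.80 (SE 0.62) was not called.

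As over all tested genes, the libraries disagreed for some of these genes by more than counting error. For 6 of the 23 tested genes (Irf2, Irf7, Ifitm1, Bst2, Ifnar2 and Trim25) the exact 95% intervals of the 129 share in the libraries did not overlap, against 17.4% of all tested genes. The log2 ratio had opposite signs in the libraries for 3 of the 23 (Irf7, Ifitm1 and Bst2), against 20.8% of all tested genes. Neither count was tested against that of all genes.

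The wider pathway was read in 6 lists of 120 further genes. Of these, 76 were tested. The 129 allele was higher for 15 and the cas allele for 14, and 47 showed no call. That is 38.2% called, against 44.0% of all tested genes. The median ratio was 0.11. Without the replicate block 15 were called in all. The split of directions depended on the scaling: 26 calls favoured 129 and 8 favoured cas with a shared library size, and 20 and 11 with the column totals. Over all tested genes, 81.3% and 61.9% of the calls favoured 129 under these scalings.

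The 11 interferon genes themselves had almost no reads. Of these genes, 7 were listed at 0, Ifnb1 among them, and none was tested; Ifna2 and Ifne had 7 reads each, and Ifna1 and Ifng 1 each. In the sensing list, 22 of 27 genes were tested, with a median ratio of 0.21. Of these, 4 were higher from 129 and 2 from cas, or 27.3% called. The counts were 9 and 1 with a shared library size and 6 and 1 with the column totals. The kinase genes Tbk1 and Ikbke, which phosphorylate Irf3, had 0.78 (SE 0.12) and 1.19 (SE 0.20), and the Toll-like receptor adaptor gene Ticam1 had 1.19 (SE 0.45), all higher from 129. Aim2, a sensor of cytosolic DNA, was higher from cas, with 493 and 852 reads and then 714 and 1029 (-0.99, SE 0.11), and Rnaseh2b had -0.29 (SE 0.09), which is lower from 129 only relative to the typical gene, since its pooled 129 share was 50.6%. Traf3 had 0.01 (SE 0.08).

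In the receptor and JAK-STAT list, 13 of 16 genes were tested, with 3 called in each direction (46.2%) and a median of 0.10. Stat2, the partner of Irf9, had 403 and 141 reads, then 518 and 117, and was higher from 129 (1.49, SE 0.19, adjusted p = 5.9e-14 in limma). Ifngr1, which pairs with Ifngr2 in the interferon gamma receptor, was also higher from 129 (1.15, SE 0.33). Pias1, an inhibitor of STAT signalling, had -0.27 (SE 0.08) and was higher from cas, a direction that holds only relative to the typical gene, as all 6 calls of this list were higher from 129 with a shared library size. Jak1, Stat3 and Ptpn2 had 0.12, 0.10 and 0.14 and were not called.

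Among 44 other induced genes, 29 were tested, 7 were higher from 129 and 6 from cas (44.8% called), with a median of 0.02. Without the replicate block the counts were 1 and 5, and with a minimum of 50 reads 3 and 5. Zc3hav1, an antiviral protein that binds CpG-rich RNA, had the largest read difference, with 1573 and 3315 reads and then 2104 and 3643 (-1.26, SE 0.07). Eif2ak2, which encodes the RNA-activated kinase PKR, had 0.22 (SE 0.09, adjusted p = 0.042 in limma), from 0.44 in library 1 and 0.00 in library 2. Tor3a was higher from cas (-0.68, SE 0.12), and Pml, the organiser of PML nuclear bodies, had 0.02 (SE 0.07). Irgm1, an immunity-related GTPase, had 42 reads from 129 and 5 from cas, then 39 and 0 (3.50, SE 0.87), and Gbp7, a guanylate-binding protein, 17 and 7, then 33 and 0 (2.57, SE 0.95). Both are few reads, and both were higher from 129.

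Among 7 other IRF and IRF2-binding genes, 5 were tested and 0 were called in limma, with a median of 0.22, 0 calls in the exact binomial test in each library, and 1 call with a shared library size. Irf5, Irf2bpl and Irf2bp2 had 0.25, -0.05 and 0.22. Of 15 further members of the OAS, IFIT, IFITM and ISG20 families, 7 were tested, with a median of -0.60. Of these 7, 1 was higher from 129 and 3 from cas, or 57.1% called. Besides the OAS1 copies, Isg20l2 was higher from cas (-0.66, SE 0.13) and Ifitm10 from 129 (2.37, SE 0.54), the latter with 58 and 16 reads and then 101 and 7.

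**Figure D4:**
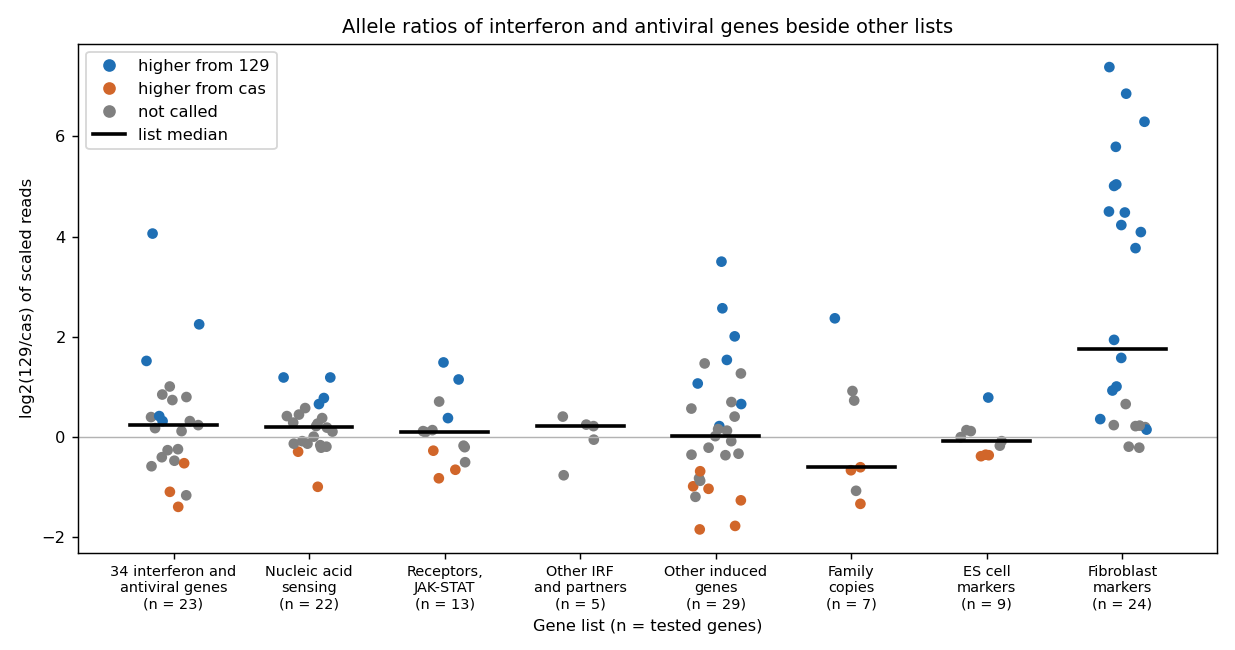
Fitted log2(129/cas) of scaled reads (vertical axis) of each tested gene in the 34 interferon and antiviral genes and in other lists (horizontal axis), coloured by call, with the list median as a bar. The median of the 34 genes is 0.24 and that of the fibroblast markers 1.76. Fibroblast values run from -0.21 to 7.38, a range that holds Ifit2 at 4.06 and also Adar at 0.12.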

How the data were processed

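Strand-specific total nuclear RNA libraries were sequenced as 100 bp paired-end reads, and earlier libraries were sequenced again and their reads merged, per the labels' protocols. Bowtie2 and mm10 are named in the submitters' processing notes, with no version. The sources used here do not name the counting program, SNP set, annotation or use of strand. The deposited values are RPKM, made by the authors, although the columns are named counts per the file headers. Dividing value times length by the worth of 1 read gave whole numbers for 100.0% of values (tolerance 0.01 read), which gave back the reads. The deposited lengths matched the annotated span within 2 bp for only 67 rows, so lengths were taken from GENCODE M21 instead, for genes matched by name, chromosome and strand.

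After scaling by the trimmed mean of M values (TMM), limma 3.58.1 (R 4.3.3) was fitted to log2(CPM + 0.1) with trended variances, allele as the tested term and library as a block, since 1 RNA sample gave both alleles of a library. Fold changes on this scale understate changes of genes with few reads. Rows needed 20 allele reads in each library, and 1570 Y chromosome rows were left out. P-values were adjusted by Benjamini-Hochberg over all tested genes. On simulated data for 15509 genes with the same design, 71.6% of 67 changes of 1.5-fold and 94% of 67 of 2-fold were recovered. Of the calls made there, 4.8% were false, at a dispersion of 0.003 set for all genes. That dispersion was not estimated from the real libraries, and few genes were given a change. These rates may therefore not hold for the real data. Promoter sequences are RefSeq windows, GRCm38.p6.

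The 34 genes and the lists were chosen with earlier results of these data known. In the 34 genes all were named; in each wider list the 4 with most reads and at most 2 more called genes, those with the largest ratios; in marker lists the 4 with most reads, where printed. Alternatives were pseudocounts of 0.5 and 1, no read minimum or 50 reads, 1 shared library size, column totals, no block, a 1.5-fold threshold, an exact binomial test in each library, and each library alone. Some genes that this rule names are not reported here.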

Additional observations from a re-analysis of the deposited data

How the results depend on the processing

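Of the 8 calls among the 34 genes, 3 (Ifit2, Ifngr2 and Oas1a) passed when a change beyond 1.5-fold was required; the same threshold left 1980 calls over all genes and 8 in the wider lists. Without the replicate block 6 of the 34 genes were called, Irf2 and Trim25 being lost, 15 genes of the wider lists and 3953 of all genes, against 6818 with it. With 1 shared library size the median over all genes was 0.32 and that of the 23 genes to 0.56, and 10 of 11 calls among them were higher from 129 (81.3% of 7997 calls over all genes); the uncalled Irf7 and Ifitm1 changed sign, to 0.08 and 0.06. With the column totals 8 of 11 calls among the 34 genes and 61.9% of 6767 over all genes were higher from 129. Counts of calls among the 34 genes under the pseudocounts, read minimums and the exact binomial test ranged from 7 to 11. Leaving out a library gave medians of 0.09 to 0.25 and 2 or 3 genes with no reads, and left no residual degrees of freedom for calls. Counting genes below 20 allele reads in a library, rather than at 0 throughout, gave 11 instead of 2. Without a read minimum, Ifit3 (2.69, adjusted p = 0.025), Tmem173 (2.43, adjusted p = 0.037) and Rsad2 (-2.52, adjusted p = 0.029) were called in limma. The 11 genes below the read minimum had at most 41 reads over both libraries, which limits the precision of their ratios.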

Other observations

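Several effector genes outside the 34 were higher from cas in both libraries; they were picked after their values were seen. Samd9l, an interferon-induced inhibitor of translation, had 122 reads from 129 and 304 from cas in library 1 and 245 and 731 in library 2 (log2 ratio -1.77, SE 0.18). Ddx60, a helicase linked to RIG-I signalling, had 269 and 413 reads, then 158 and 275 (-1.03, SE 0.18), and Parp14 had 299 and 462, then 268 and 430 (-0.98, SE 0.16).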
